A study of Rattus norvegicus with 65 samples.

Results

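The aminoacyl-tRNA synthetases are described here at the transcript level in rat heart muscle cells, isolated from neonatal animals and kept in primary culture, after treatment with 3 compounds. The 35 genes were listed by name, 1 for each enzyme or subunit. No cutoff on a measured value set the list, but it was chosen with earlier results of these data known. A row of the count table was found for 34 of them, among 14554 genes in all: 19 cytosolic genes, whose symbols end in 1, a or b, and 15 mitochondrial genes, whose symbols end in 2. Ears2 was not analysed here.

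Cultures were exposed to 10 mM 5-fluorouracil (5FU), 2.5 mM acetaminophen (Ace) or 1.25 μM doxorubicin (Dox) for 6 or 24 hours, and polyA RNA was sequenced. Each drug was compared with its solvent, DMSO1 (1% DMSO) for 5FU and DMSO2 (0.25% DMSO) for Ace and Dox, so Ace and Dox share their control libraries at each time. The 65 libraries form 10 groups: 6 libraries for each group at 6 hours apart from 7 for Dox and 7 for DMSO2, and 7 for each group at 24 hours apart from 6 for 5FU and 6 for DMSO1. All cultures were deprived of serum overnight before exposure, the controls included. Each group's libraries come from wells seeded with 1 mixture of cells from several litters, and p-values therefore measure only the spread between wells.

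Each synthetase joins an amino acid to its tRNAs, the step that sets the meaning of the genetic code. Most amino acids have separate nuclear genes for the cytosolic and the mitochondrial enzyme, but Gars1 and Kars1 each serve both compartments, Eprs1 carries the glutamyl and prolyl activities in a single chain, and cytosolic phenylalanyl-tRNA synthetase is built from the Farsa and Farsb subunits. Several cytosolic enzymes assemble with scaffold proteins in a multisynthetase complex, and the transcription factor ATF4, made when eIF2 is phosphorylated, is known to raise many cytosolic synthetase genes through C/EBP-ATF elements.

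Promoter windows of 300 bases, from 250 before to 50 after the transcription start, were taken from RefSeq (GRCr8) for 32 of the 34 genes, all but Rars1 and Gars1. They were searched on both strands for the C/EBP-ATF element TGATGNAA, for the cAMP response element TGACGTCA and for the E-box CACGTG. The element was in 7 of the 17 cytosolic windows and in 0 of the 15 mitochondrial ones, against 3.98% of all 33469 windows and 2.15% of the 12818 windows of genes in the table. All 7 also hold the stricter TGATGCAA, which was found in 0.795% of all windows and 0.554% of those of genes in the table. A match is a description of letters in the window and not a bound site. The 7 genes are Aars1, Cars1, Iars1, Mars1, Nars1, Tars1 and Yars1, and they are described together below. The stretches of 6 of them are printed for that reason. Each is given 5′ to 3′ on the strand of its gene, with the 8 matching letters in capitals, so a match on the opposite strand reads TTGCATCA.
Cars1, chr1:208225334-208225363, minus strand: cggcgccgcggTTGCATCAgattctggaaa
Iars1, chr17:15193658-15193687, minus strand: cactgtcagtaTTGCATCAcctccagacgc
Mars1, chr7:65023752-65023781, minus strand: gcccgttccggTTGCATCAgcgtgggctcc
Nars1, chr18:60275778-60275807, minus strand: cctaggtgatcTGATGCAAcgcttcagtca
Tars1, chr2:62114811-62114840, minus strand: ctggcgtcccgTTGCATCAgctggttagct
Yars1, chr5:146820190-146820212, plus strand: acgagctcagcTGATGCAAcctg

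The first matching base lies 27 bases before the start in Tars1, 24 in Iars1, 17 in Mars1 and 14 in Nars1. In Cars1 it is base 18 after the start and in Yars1 base 39. The E-box CACGTG was in 5 of the 17 cytosolic windows (Aars1, Farsb, Iars1, Tars1 and Vars1) and 0 of the 15 mitochondrial ones. It was in 6.42% of all windows and 8.66% of those of genes in the table. No synthetase window held TGACGTCA, which 1.83% of all windows and 2.85% of those of genes in the table did. None of the E-box matches overlaps a C/EBP-ATF match.

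Library totals ran from 14332827 to 25738297 estimated counts, and every synthetase had at least 30 counts in every library, so all 34 could be tested in every comparison. Of the marker lists, cardiomyocyte genes were abundant in every group, and 11 of 12 had a row. Summed cardiomyocyte markers were 21078 to 27421 CPM (read counts made comparable between libraries through TMM-scaled totals) in Dox at 24 hours against 39877 to 51414 in DMSO2, and 30510.2 to 32933 in 5FU against 38345 to 44095 in DMSO1. In Dox at 24 hours 10 of the 11 fell and 1 rose (median log2 fold change -1.80), and Nppa alone had a median of 12215 CPM against 1017 in DMSO2. All 10 fibroblast markers fell at 24 hours in each drug. Their summed CPM was 7303 to 9337 in Ace and 1949 to 4102 in Dox against 15232 to 19018 in DMSO2, and 5204 to 5874 in 5FU against 10039 to 20015 in DMSO1. All 7 endothelial markers in the table fell in Dox at 24 hours, to a sum of 23.5 to 52.2 CPM against 269 to 359.5 in DMSO2, with a median Cldn5 of 0. All 8 macrophage markers fell there too, at 37.9 to 53.6 against 98.2 to 119 summed CPM. Smooth muscle markers stood at 1106 to 3269.9 summed CPM in Dox, 984 to 4251 in DMSO1 and 817 to 1202 in DMSO2 at 6 hours, and 4 of the 5 rose in Dox at 24 hours (median 1.75). At 6 hours all 7 endothelial markers fell in Dox (81.2 to 124 against 237 to 292 summed CPM), and in DMSO1 against DMSO2 6 endothelial and 8 fibroblast markers fell. Of the 11 cardiomyocyte markers 4 rose and 1 fell in DMSO1 against DMSO2 at that time. Their summed CPM was 48328 to 71246 in DMSO1 and 44039 to 49117 in DMSO2. The part of these shifts in the synthetase results was not tested, and in bulk RNA fewer cells of a type and less RNA per cell cannot be told apart. Among the synthetases, library 3 of DMSO1 at 6 hours held the lowest value of its group for 16 of the 19 cytosolic genes, library 1 of 5FU at 6 hours the highest for 15 of 19, and library 1 of DMSO1 at 24 hours the lowest for 14 of 19.

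The synthetases differed in how far their levels ranged over the 10 groups. The ratio of the highest to the lowest group median ran from 1.25 (Sars1, seryl) to 4.38 (Iars1, isoleucyl) over the cytosolic genes, with a median of 2.18. Over the mitochondrial genes it ran from 1.17 (Iars2, isoleucyl) to 6.02 (Wars2, tryptophanyl), with a median of 2.26. The highest group median was in DMSO1 at 6 hours for 14 of the 19 cytosolic genes. The lowest was in 5FU at 24 hours for 9 of them and in Dox at 24 hours for 6. For the mitochondrial genes the lowest was in Dox at 24 hours for 8 of 15, and no group held the highest for more than 4. Summed over the 19 genes, cytosolic synthetases made up 2575 to 2689.9 CPM in DMSO2 and 2556 to 3374 in DMSO1 at 6 hours, and 2116 to 2470.1 and 1926 to 2255 at 24 hours. The sum of the 15 mitochondrial genes was steadier, at 396 to 425 and 380.4 to 420.4 CPM at 6 hours and 367 to 402 and 380.0 to 405 at 24 hours.

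**Figure D1:**
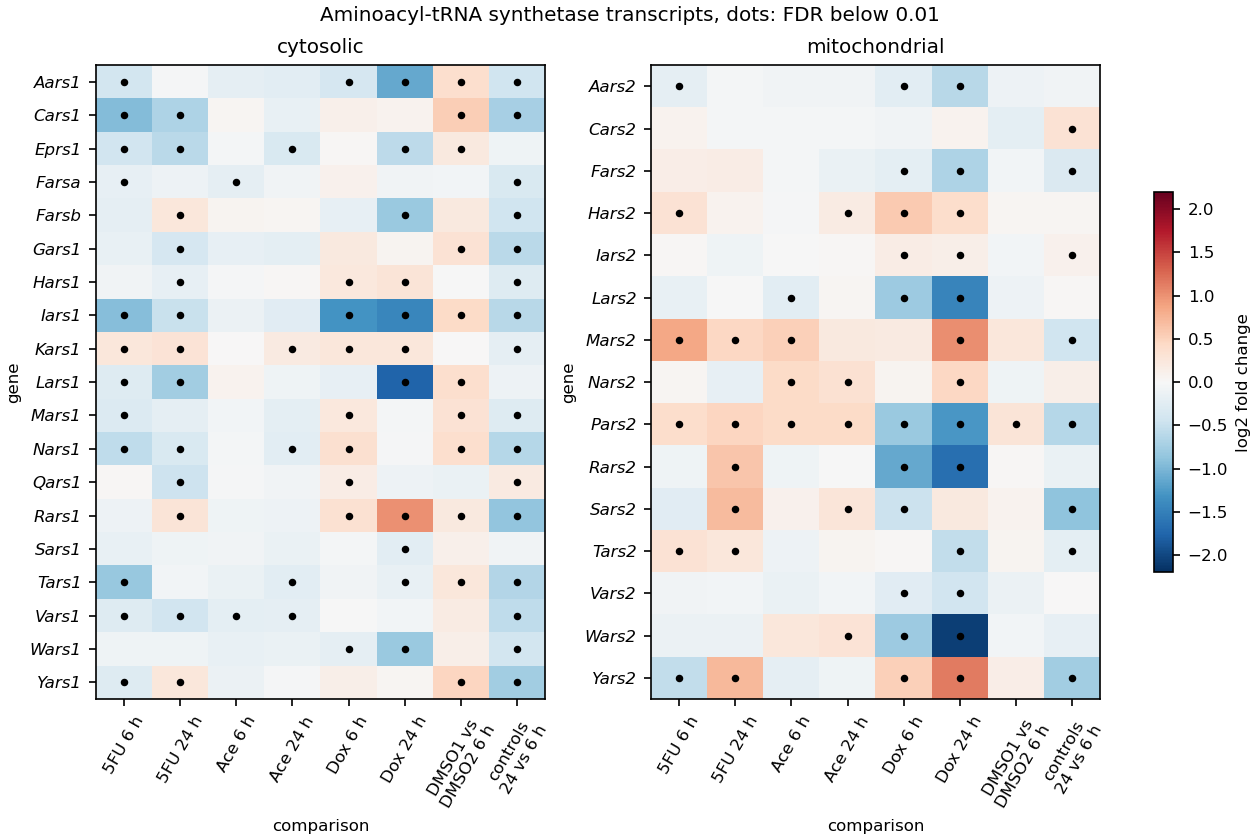
Log2 fold changes of the 19 cytosolic (left) and 15 mitochondrial (right) synthetase genes in 8 comparisons; red is higher and blue lower in the drug, in DMSO1 or at 24 hours, and a black dot marks an FDR below 0.01. Blue cells with dots fill most of the last cytosolic column and the 5FU 6-hour column, while the darkest mitochondrial cells are Wars2, Rars2 and Lars2 in Dox at 24 hours.

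In the following, a gene rose or fell when edgeR's quasi-likelihood test gave a Benjamini-Hochberg FDR below 0.01 over all 14554 genes, and every log2 fold change is the first group minus the second. The course of the genes without a drug was read first, from the DMSO controls at 24 against 6 hours. It averages DMSO1 and DMSO2, which differed for 11 of the 19 cytosolic genes at 6 hours, as given below. The course therefore carries that difference too. Of the 19 cytosolic genes 1 rose and 15 fell, with a median log2 fold change of -0.44, while 32.7% of all genes tested rose and 31.9% fell with a median of 0.01. Of the 15 mitochondrial genes 2 rose and 6 fell (median -0.15). Rars1, the cytosolic arginyl enzyme, was at 92.8 to 113 CPM (median 98.9) at 6 hours and 54.3 to 63 CPM (median 57.2) at 24 hours in DMSO2, and at 99.7 to 134 CPM (median 117) and 53.7 to 61.9 CPM (median 60.5) in DMSO1. Neither pair of groups overlaps, and the log2 fold change was -0.87 (SE 0.048, adjusted p = 6.4e-25). Yars1, the cytosolic tyrosyl enzyme, changed by -0.76 (SE 0.053, adjusted p = 5e-20). Qars1, the glutaminyl enzyme, was the 1 cytosolic gene that rose, by 0.20 (SE 0.035, adjusted p = 1.1e-06). Among the mitochondrial genes, Sars2 (seryl) was at 17.3 to 18.2 CPM (median 17.6) at 6 hours and 8.86 to 11.8 CPM (median 9.89) at 24 hours in DMSO2, without overlap, and changed by -0.89 (SE 0.059, adjusted p = 3.8e-21). Yars2 (tyrosyl) changed by -0.77 (SE 0.061, adjusted p = 1.3e-17). The mitochondrial genes that rose were Cars2 (cysteinyl, 0.32) and Iars2 (0.09), and Iars2 lost its call in 10 of 26 fits that left out 1 library. With library size alone 1 mitochondrial gene rose and 6 fell. The share of cytosolic genes that fell was above that over all genes, and the share that rose was below it.

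Many cytosolic genes differed between the DMSO groups at 6 hours, and the cause of this was not tested. In DMSO1 against DMSO2, of the 19 cytosolic genes 11 rose and 0 fell (median 0.22) and of the 15 mitochondrial genes 1 rose and 0 fell (median -0.06), where 9.87% of all genes tested rose and 6.6% fell. Cars1, the cytosolic cysteinyl enzyme, stood at 90.1 to 154 CPM (median 129.9) in DMSO1 and 85.9 to 94.8 CPM (median 89.3) in DMSO2, a log2 fold change of 0.53 (SE 0.087, adjusted p = 3.2e-06). Its ranges overlap, with the lowest DMSO1 library inside the DMSO2 range. Yars1 stood at 104 to 169 CPM (median 159) in DMSO1 and 103 to 117 CPM (median 109) in DMSO2, with 0.47 (SE 0.074, adjusted p = 1.9e-06), and these ranges overlap too. Pars2, the mitochondrial prolyl enzyme, stood at 14.8 to 18.2 CPM (median 16.6) and 12 to 15.1 CPM (median 13.8), overlapping, and changed by 0.28 (SE 0.08, adjusted p = 0.006), a call lost in 7 of the 13 fits that left out 1 library. Under scaling by library size alone, 8 cytosolic genes rose and 1 fell, while 0 mitochondrial genes rose and 1 fell. Rars1 lost its call in 10 of those 13 fits, Eprs1 in 6 and Gars1 in 1, and the called cytosolic genes ranged from 8 without library 1 of DMSO1 to 14 without library 3. At 24 hours 0 cytosolic and 0 mitochondrial genes differed between the DMSO groups by edgeR and also by DESeq2, with 3 and 1 at an unadjusted p under 0.05, and 0.137% of all genes rose and 0.295% fell.

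After 6 hours of 5FU the cytosolic transcripts were mostly lower than in DMSO1. Of 19 cytosolic genes 1 rose and 11 fell (median -0.28), where 23.4% of all genes tested rose and 24.5% fell with a median of 0.00, so the share that fell was above the background and the share that rose below it. Cars1 was at 56.9 to 78.9 CPM (median 66.2) in 5FU and 90.1 to 154 CPM (median 129.9) in DMSO1, a log2 fold change of -0.95 (SE 0.092, adjusted p = 8.2e-14), or 1.94-fold lower. Iars1, the isoleucyl enzyme, was at 73.1 to 99.7 CPM (median 84.5) against 119 to 191 CPM (median 163), with -0.94 (SE 0.096, adjusted p = 5.5e-13). Tars1, the threonyl enzyme, was at 73.2 to 77.7 CPM (median 73.5) against 110.2 to 152 CPM (median 132), with -0.83 (SE 0.051, adjusted p = 1.3e-21). In each of these 3 genes every 5FU library was below every DMSO1 library. Nars1 (asparaginyl, -0.56), Eprs1 (-0.41), Aars1 (alanyl, -0.40), Mars1 (methionyl, -0.31), Yars1 (-0.28), Lars1 (leucyl, -0.28), Vars1 (valyl, -0.28) and Farsa (-0.19) fell with overlapping ranges. Kars1, the lysyl enzyme of both compartments, was the 1 that rose, by 0.24 (SE 0.037, adjusted p = 8.5e-08), with every 5FU library above every DMSO1 library. Without library 1 of 5FU, 16 cytosolic genes fell and 1 rose, and without library 3 of DMSO1 14 were called. Lars1 lost its call without library 6 of DMSO1 (adjusted p = 0.011).

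The 7 cytosolic genes with the element all fell in 5FU at 6 hours (median -0.56) and all rose in DMSO1 against DMSO2 (median 0.37). These comparisons share the DMSO1 libraries, so neither count is independent of the other. Of the 10 cytosolic genes whose window was searched and lacks the element, 1 rose and 4 fell in 5FU (median -0.17) and 2 rose and 0 fell in DMSO1 (median 0.12). Over all genes 23.4% rose and 24.5% fell in 5FU at 6 hours, and 9.87% rose and 6.6% fell in DMSO1. When 5FU at 6 hours was set against DMSO2, an alternative chosen after the data were seen, 4 of the 7 fell and 0 rose (median -0.19), and of all 19 cytosolic genes 6 fell and 1 rose (median -0.04), where 3832 of all genes fell and 3994 rose. Against DMSO2, Tars1 changed by -0.58 (SE 0.050, adjusted p = 5e-16), Iars1 by -0.52 and Cars1 by -0.42, all 3 still called, while Aars1, at -0.04, and Mars1, at 0.01, were not. The DMSO concentration differs in that comparison. In Ace at 6 hours 0 of the 7 were called (median -0.12), where 16.5% of all genes rose and 15.2% fell. In Dox at 6 hours 2 rose and 2 fell (median 0.11), near the 31.5% and 32.7% over all genes. The 7 did not move together in either drug. Aars1 shows the order of the 3 groups, with 245 to 259.7 CPM (median 249) in DMSO2, 248 to 370.3 CPM (median 331) in DMSO1 and 211 to 299.5 CPM (median 238) in 5FU. Its 5FU libraries span those of DMSO2 and overlap the lowest of DMSO1. Atf4 itself was at 175 to 210.1 CPM (median 184) in DMSO2, 158 to 312 CPM (median 259) in DMSO1 and 158 to 212 CPM (median 183) in 5FU, with log2 fold changes of 0.42 (SE 0.091, adjusted p = 0.00027) between the solvents and -0.44 (SE 0.094, adjusted p = 6.1e-05) for 5FU. At 24 hours of 5FU 1 of the 7 rose and 3 fell, and of the 10 without the element 2 rose and 5 fell. At 24 hours of Dox 0 of the 7 rose and 3 fell, beside 2 and 5 of the 10. Over all genes 28% rose and 27.8% fell in 5FU at 24 hours, and 40.4% and 41% in Dox. In Ace at 24 hours 0 of the 7 rose and 2 fell, beside 1 and 2 of the 10 (18.2% and 19.1% of all genes).

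**Figure D2:**
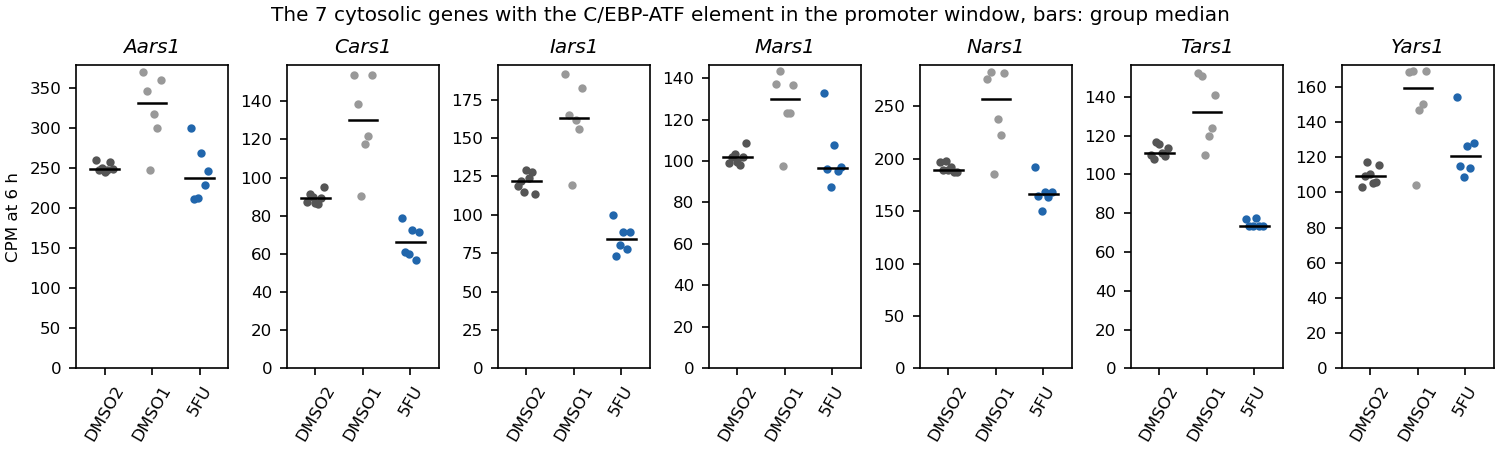
CPM of the 7 cytosolic genes with the C/EBP-ATF element in their promoter window at 6 hours, 1 panel per gene; points are the 7 DMSO2, 6 DMSO1 and 6 5FU libraries, and bars are group medians. The DMSO1 median is the highest in every panel, 1 DMSO1 library lies apart below the others, and in Cars1, Iars1 and Tars1 the 5FU libraries lie below all control libraries.

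Mitochondrial synthetases moved in both directions in 5FU at 6 hours: of 15, 4 rose and 2 fell (median 0.02), shares near or below the background. Mars2, the mitochondrial methionyl enzyme, was at 10.8 to 14.4 CPM (median 12.2) in 5FU and 5.83 to 8.4 CPM (median 6.53) in DMSO1, a log2 fold change of 0.86 (SE 0.09, adjusted p = 1.7e-12). Pars2 was at 20.4 to 25.9 CPM (median 20.9) against 14.8 to 18.2 CPM (median 16.6), with 0.38 (SE 0.082, adjusted p = 5.1e-05). Yars2 was at 6.65 to 9.88 CPM (median 7.6) against 10.01 to 12.8 CPM (median 11.4), with -0.53 (SE 0.087, adjusted p = 3.9e-07). The groups do not overlap in any of the 3. Hars2 (histidyl, 0.33) and Tars2 (threonyl, 0.32) also rose without overlap, and Aars2 (alanyl, -0.20) fell with overlapping ranges and lost its call in 4 of 12 fits that left out 1 library.

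At 24 hours of 5FU, of the cytosolic genes 4 rose and 9 fell (median -0.18), and of the mitochondrial genes 6 rose and 0 fell (median 0.08), where 28% of all genes tested rose and 27.8% fell. Cytosolic decreases and mitochondrial increases were the shares above the background. Lars1 was at 64 to 73.8 CPM (median 65.7) in 5FU and 94.6 to 122 CPM (median 116) in DMSO1, a log2 fold change of -0.77 (SE 0.08, adjusted p = 8.8e-13). Cars1 was at 35.4 to 42.4 CPM (median 39.1) against 56.2 to 66.5 CPM (median 63.6), with -0.68 (SE 0.095, adjusted p = 7e-09). Eprs1, the glutamyl and prolyl enzyme, was at 205 to 208 CPM (median 208) against 249.6 to 342 CPM (median 319), with -0.59 (SE 0.063, adjusted p = 1.5e-12). All 5FU libraries were below all DMSO1 libraries in these 3 genes. Iars1 (-0.49), Qars1 (-0.45), Vars1 (-0.43), Gars1 (glycyl, -0.37), Nars1 (-0.34) and Hars1 (histidyl, -0.18) fell too. The 4 that rose were Kars1 (0.29), Rars1 (0.29), Farsb (0.26) and Yars1 (0.25), of which Yars1 lost its call in 3 of 12 fits that left out 1 library.

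The mitochondrial increases at 24 hours of 5FU were led by Yars2, at 9.59 to 11.2 CPM (median 10.1) against 5.13 to 7.44 CPM (median 6.16) in DMSO1, with a log2 fold change of 0.72 (SE 0.091, adjusted p = 4.3e-10). Sars2 was at 13.9 to 18.8 CPM (median 15.3) against 7.96 to 11.4 CPM (median 9.59), with 0.70 (SE 0.087, adjusted p = 2.5e-10). Rars2, the mitochondrial arginyl enzyme, was at 15.5 to 16.3 CPM (median 15.8) against 8.68 to 12.8 CPM (median 10.1), with 0.61 (SE 0.088, adjusted p = 1.1e-08). None of these pairs of groups overlaps. The 5FU median of Sars2 was 15.3 CPM at 6 hours as well, while in the controls Sars2 changed by -0.89 between the times. Pars2 (0.47), Mars2 (0.46) and Tars2 (0.24) rose as well. Set against DMSO2 at 24 hours, again chosen after the data were seen, 14 cytosolic genes fell and 3 rose (median -0.27), and 8 mitochondrial genes rose and 0 fell, where 4525 of all genes fell and 4416 rose.

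The change of the 5FU effect between the times was tested as the 24-hour effect minus the 6-hour effect. Such a difference takes in the course of the controls as well as that of the drug groups. Of the cytosolic genes 6 were higher and 2 lower by this test (background 20.3% and 19.2% of all genes), and of the mitochondrial genes 3 were higher and 0 lower, or 3 and 1 with DESeq2. Tars1 fell at 6 hours and did not pass the test at 24 hours, at -0.06 (adjusted p = 0.32), a difference of 0.77 (SE 0.073, adjusted p = 1.3e-13). Yars1 turned from -0.28 to 0.25 against DMSO1, a difference of 0.53 (SE 0.11, adjusted p = 5.5e-05). Set against DMSO2, as chosen after the data were seen, Yars1 had no such turn. There it was at 0.18 at 6 hours (edgeR adjusted p = 0.028, not called) and 0.23 at 24 hours (adjusted p = 0.0048). Yars2 turned from -0.53 to 0.72, a difference of 1.25 (SE 0.13, adjusted p = 1.3e-12), and Sars2 differed by 0.94 (SE 0.12, adjusted p = 1.7e-09). Aars1 lost its call in 7 and Iars1 in 3 of 24 fits that left out 1 library.

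Ace moved few synthetases, and the shares called were near or below the background apart from the mitochondrial increases at 24 hours. At 6 hours, of the 19 cytosolic genes 0 rose and 2 fell (median -0.07) and of the 15 mitochondrial genes 3 rose and 1 fell (median -0.04), where 16.5% of all genes tested rose and 15.2% fell. At 24 hours, of the cytosolic genes 1 rose and 4 fell (median -0.15) and of the mitochondrial genes 5 rose and 0 fell (median 0.04), where 18.2% of all genes tested rose and 19.1% fell. With DESeq2 the cytosolic calls at 24 hours were 8, with a fit of the compared groups only they were 11, and without library 7 of DMSO2 they were 8. The mitochondrial calls at 24 hours were 3 without library 2 of DMSO2.

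Vars1 was at 120.2 to 138 CPM (median 127) in Ace and 140.2 to 157 CPM (median 145) in DMSO2 at 6 hours, a log2 fold change of -0.22 (SE 0.064, adjusted p = 0.0042). Farsa was at 45 to 50.6 CPM (median 48.8) against 51.3 to 59.1 CPM (median 56.2), with -0.20 (SE 0.047, adjusted p = 0.00029). Every Ace library was below every DMSO2 library in both, but the call of Vars1 was lost in 5 of 13 fits that left out 1 library (highest adjusted p = 0.014). The mitochondrial increases at 6 hours were larger. Mars2 was at 7.38 to 8.96 CPM (median 8.26) against 4.52 to 6.4 CPM (median 5.86), with 0.53 (SE 0.089, adjusted p = 1.7e-06). Nars2, the mitochondrial asparaginyl enzyme, was at 21.3 to 27.3 CPM (median 25) against 15 to 20.8 CPM (median 18.7), with 0.43 (SE 0.072, adjusted p = 1.9e-06). Pars2 was at 16.6 to 19.4 CPM (median 18.7) against 12 to 15.1 CPM (median 13.8), with 0.42 (SE 0.08, adjusted p = 1.2e-05). Every Ace library was above every DMSO2 library in these 3 genes, and Lars2 (mitochondrial leucyl) changed by -0.23 (SE 0.066, adjusted p = 0.0032) with overlap, a call lost in 5 of 13 fits that left out 1 library.

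At 24 hours of Ace, Eprs1 was at 262 to 286 CPM (median 272) against 318 to 385 CPM (median 340.2), with -0.34 (SE 0.058, adjusted p = 1.5e-06). Tars1 was at 67.7 to 73.3 CPM (median 70.5) against 77 to 93.2 CPM (median 80.6), with -0.24 (SE 0.048, adjusted p = 2.8e-05). Nars1 was at 119 to 129.5 CPM (median 124) against 134 to 157 CPM (median 145), with -0.23 (SE 0.06, adjusted p = 0.001). These groups did not overlap, and Vars1 fell too (-0.19, lost in 8 of 14 fits that left out 1 library), while Kars1 rose by 0.19 (SE 0.034, adjusted p = 4.6e-06). Among the mitochondrial genes Pars2 was at 9.74 to 14.2 CPM (median 12.4) against 8.08 to 10.2 CPM (median 9.31), with 0.41 (SE 0.08, adjusted p = 1.7e-05). Nars2 was at 22.2 to 25.2 CPM (median 24.9) against 17.1 to 22.4 CPM (median 19.3), with 0.33 (SE 0.07, adjusted p = 6.3e-05). Wars2 was at 12 to 15.3 CPM (median 12.5) against 8.57 to 11.7 CPM (median 11.2), with 0.30 (SE 0.091, adjusted p = 0.005). Pars2 and Nars2 overlapped with DMSO2 and Wars2 did not. Sars2 (0.27) and Hars2 (0.18) completed the 5 that rose. Leaving out 1 library ended the call of Sars2 in 5 of 14 fits, of Wars2 in 4 and of Hars2 in 3.

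The Ace effect differed between the times for 2 cytosolic genes, Eprs1 by -0.29 (SE 0.084, adjusted p = 0.008) and Kars1 by 0.18 (SE 0.05, adjusted p = 0.005), 1 lower and 1 higher (background 5.58% higher and 6.06% lower). Each of these calls was lost in 8 of 27 fits that left out 1 library, and with library size alone that of Eprs1 was lost (-0.20, adjusted p = 0.052), which left 1 higher and 0 lower. For the mitochondrial genes 0 differed by edgeR and by DESeq2, with 4 at an unadjusted p under 0.05.

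Dox at 6 hours moved synthetases of both compartments in both directions. Of the 15 mitochondrial genes 3 rose and 8 fell (median -0.22), and of the 19 cytosolic genes 6 rose and 3 fell (median 0.10), where 31.5% of all genes tested rose and 32.7% fell with a median of 0.00. The mitochondrial decreases exceeded that background, and the cytosolic increases were at it. The cytosolic balance depends on the scaling: with library size alone 3 rose and 7 fell, a setting that shifts the median of all genes to -0.15, and with the DESeq2 test 8 rose and 2 fell. Iars1 was at 33.3 to 76.5 CPM (median 45.3) in Dox and 114 to 129 CPM (median 122) in DMSO2, a log2 fold change of -1.32 (SE 0.091, adjusted p = 2.5e-20), or 2.5-fold lower. Aars1 was at 147 to 259 CPM (median 196) against 245 to 259.7 CPM (median 249), with -0.37 (SE 0.076, adjusted p = 1.7e-05). Nars1 was at 207 to 285 CPM (median 244) against 187 to 198 CPM (median 189), with 0.35 (SE 0.06, adjusted p = 5.7e-07). Iars1 and Nars1 were without overlap and Aars1 was not. Rars1 (0.33), Kars1 (0.25), Mars1 (0.24), Hars1 (0.23) and Qars1 (0.16) also rose, and Wars1 (tryptophanyl, -0.20) fell. Nars1 rose with library size alone too (0.19, adjusted p = 0.0014). Mars1 lost its call without library 4 of Dox (0.16), and Wars1 in 7 of the 14 fits that left out 1 library.

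The mitochondrial decrease at 6 hours of Dox was largest in Rars2, at 3.67 to 6.42 CPM (median 5.1) against 9.96 to 11.7 CPM (median 10.7) in DMSO2, with -1.12 (SE 0.088, adjusted p = 6.2e-18). Pars2 was at 6.42 to 9.15 CPM (median 7.96) against 12 to 15.1 CPM (median 13.8), with -0.81 (SE 0.082, adjusted p = 1.2e-13). Wars2 was at 5.34 to 10.1 CPM (median 6.43) against 11.9 to 12.7 CPM (median 12.1), with -0.81 (SE 0.095, adjusted p = 3e-11). No Dox library reached the DMSO2 range in these 3 genes. Lars2 (-0.79), Sars2 (-0.47), Vars2 (valyl, -0.24), Aars2 (-0.24) and Fars2 (phenylalanyl, -0.22) fell too. Hars2 (0.57), Yars2 (0.53) and Iars2 (0.16) rose. Vars2 lost its call in 8 of 14 fits that left out 1 library, and with library size alone the mitochondrial median was -0.38.

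Dox at 24 hours gave the widest spread of log2 fold changes of the 6 drug comparisons, from -2.08 to 1.15. Of the 19 cytosolic genes 3 rose and 8 fell (median -0.08), and of the 15 mitochondrial genes 5 rose and 8 fell (median -0.42), where 40.4% of all genes tested rose and 41% fell with a median of 0.00. The share of mitochondrial decreases was above that background, and the other shares were near or below it. Lars1 was at 28.6 to 40.7 CPM (median 37.1) in Dox and 115 to 127 CPM (median 119) in DMSO2, a log2 fold change of -1.76 (SE 0.077, adjusted p = 7.6e-31), or 3.39-fold lower. Iars1 was at 26.3 to 38.8 CPM (median 37.3) against 87.2 to 109 CPM (median 94.1), with -1.43 (SE 0.093, adjusted p = 3.1e-22). Aars1 was at 70.3 to 108 CPM (median 104) against 193 to 228 CPM (median 216), with -1.12 (SE 0.077, adjusted p = 6.6e-21). In each, all Dox libraries were below all DMSO2 libraries. Farsb (-0.82), Wars1 (-0.81), Eprs1 (-0.57), Sars1 (-0.23) and Tars1 (-0.16) fell as well, Tars1 losing its call in 6 of 14 fits that left out 1 library. Rars1 went the other way, at 109.5 to 125 CPM (median 121) in Dox against 54.3 to 63 CPM (median 57.2) in DMSO2, with 1.01 (SE 0.065, adjusted p = 2.7e-22) and no overlap, and Hars1 (0.28) and Kars1 (0.25) also rose. The Dox median of Rars1 was 121 CPM at 6 hours as well, while in the controls Rars1 changed by -0.87 between the times.

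Among the mitochondrial genes at 24 hours of Dox, Wars2 was at 1.76 to 3.29 CPM (median 2.47) against 8.57 to 11.7 CPM (median 11.2), with -2.08 (SE 0.11, adjusted p = 7.4e-27), or 4.22-fold lower. Rars2 was at 2.11 to 3.52 CPM (median 3.21) against 8.67 to 10.3 CPM (median 9.35), with -1.66 (SE 0.094, adjusted p = 4.3e-25). Lars2 was at 9.06 to 13 CPM (median 9.998) against 26.8 to 31 CPM (median 28.9), with -1.46 (SE 0.068, adjusted p = 2.8e-29). All Dox libraries were below all DMSO2 libraries in these 3 genes. Pars2 (-1.28), Fars2 (-0.68), Aars2 (-0.60), Tars2 (-0.54) and Vars2 (-0.42) made up the rest of the 8 that fell. Yars2 rose and was at 12.8 to 17.6 CPM (median 14.3) against 5.78 to 7.49 CPM (median 6.63), with 1.15 (SE 0.082, adjusted p = 2.6e-20). Mars2 rose and was at 7.59 to 11 CPM (median 9.58) against 3.73 to 5.18 CPM (median 4.92), with 1.03 (SE 0.088, adjusted p = 8.3e-17), both without overlap. The Dox median of Yars2 was 14.1 CPM at 6 hours already, while in the controls Yars2 changed by -0.77 between the times. Nars2 (0.46), Hars2 (0.39) and Iars2 (0.13) rose too, Iars2 losing its call in 3 of 14 fits that left out 1 library.

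**Figure D3:**
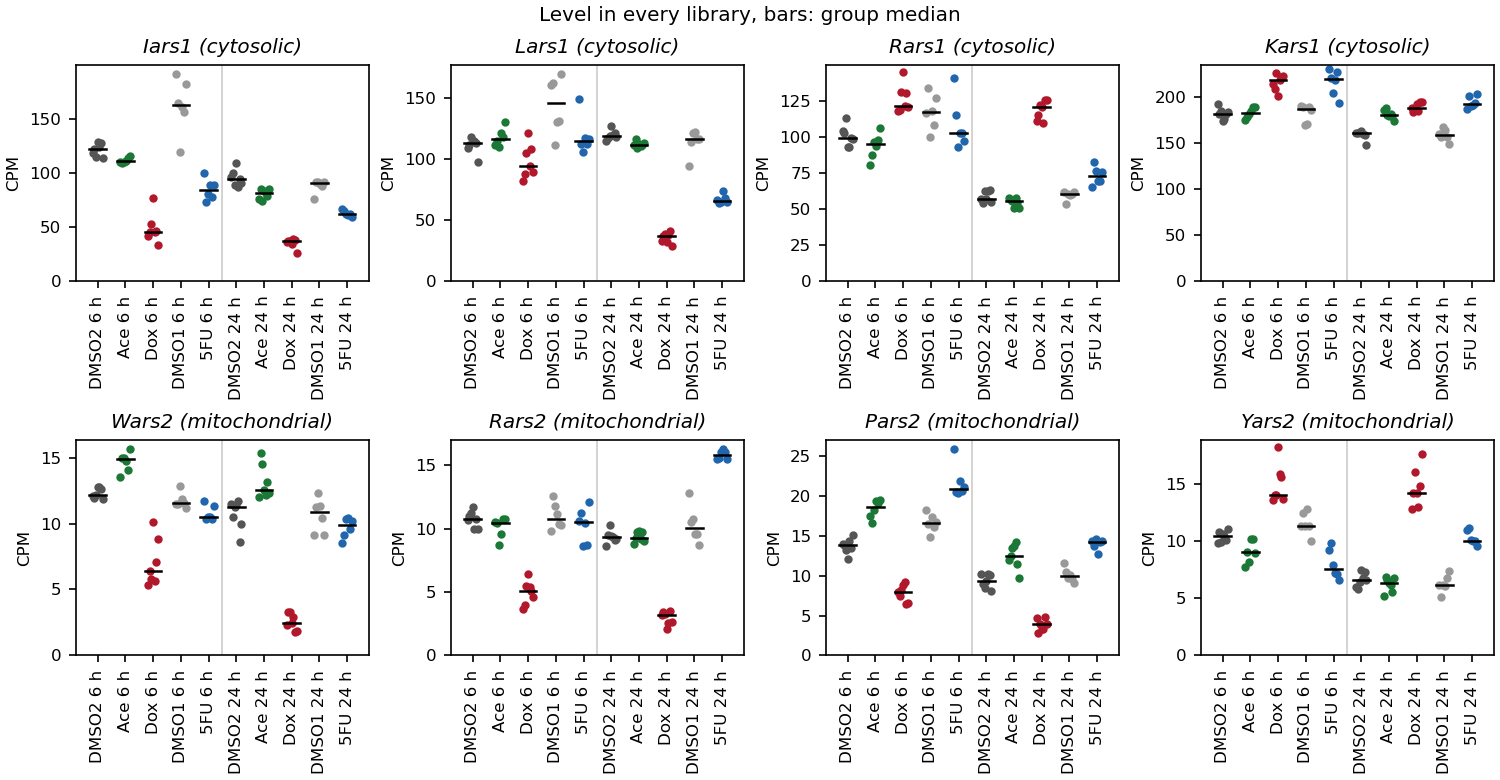
CPM of 4 cytosolic (top) and 4 mitochondrial (bottom) synthetase genes in every library of the 10 groups; points are libraries, bars are group medians, and the grey line parts 6 from 24 hours. At both times the Dox medians (red) are the lowest for Iars1, Wars2, Rars2, Pars2 and Lars1, for Lars1 by far more at 24 hours, and the highest for Rars1 and Yars2. At 6 hours the Dox and 5FU libraries of Iars1 overlap.

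Enzymes for the same amino acid in the cytosol and in the mitochondrion were compared as 14 pairs, with Eprs1 set beside Pars2 for proline. In Dox at 24 hours both genes of a pair changed in the same direction in 6 pairs, in opposite directions in 2, only 1 gene changed in 5, and neither in 1, where 40.4% of all genes rose and 41% fell. Pairs with the same direction were 3 in Dox at 6 hours, 2 in 5FU at 6 and 2 at 24 hours, and 0 in Ace at either time. Pairs with opposite directions were 2 in Dox at 6 hours, 3 in 5FU at 6 hours, 1 in 5FU at 24 hours, 0 in Ace at 6 hours and 2 in Ace at 24 hours. Of all genes, 31.5% rose and 32.7% fell in Dox at 6 hours. The 5FU shares were 23.4% rising with 24.5% falling at 6 hours, then 28% rising with 27.8% falling at 24 hours. For Ace, 16.5% rising with 15.2% falling at 6 hours became 18.2% rising with 19.1% falling at 24 hours. All these shares are for single genes, and how often unrelated genes share a direction when taken as pairs was not counted. Whether the 6 pairs in Dox at 24 hours exceed that was therefore not tested. Among those 6, the leucyl pair fell together (Lars1 -1.76, Lars2 -1.46), as did the tryptophanyl pair (Wars1 -0.81, Wars2 -2.08) and the alanyl pair. The arginyl pair split, with Rars1 at 1.01 and Rars2 at -1.66, and so did the isoleucyl pair, with Iars1 at -1.43 and Iars2 at 0.13. In 5FU the arginyl genes both rose at 24 hours (Rars1 0.29, Rars2 0.61). For methionine, Mars2 rose in both 5FU and Dox at 24 hours while Mars1 was at -0.20 and -0.04 and did not pass the test.

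**Figure D4:**
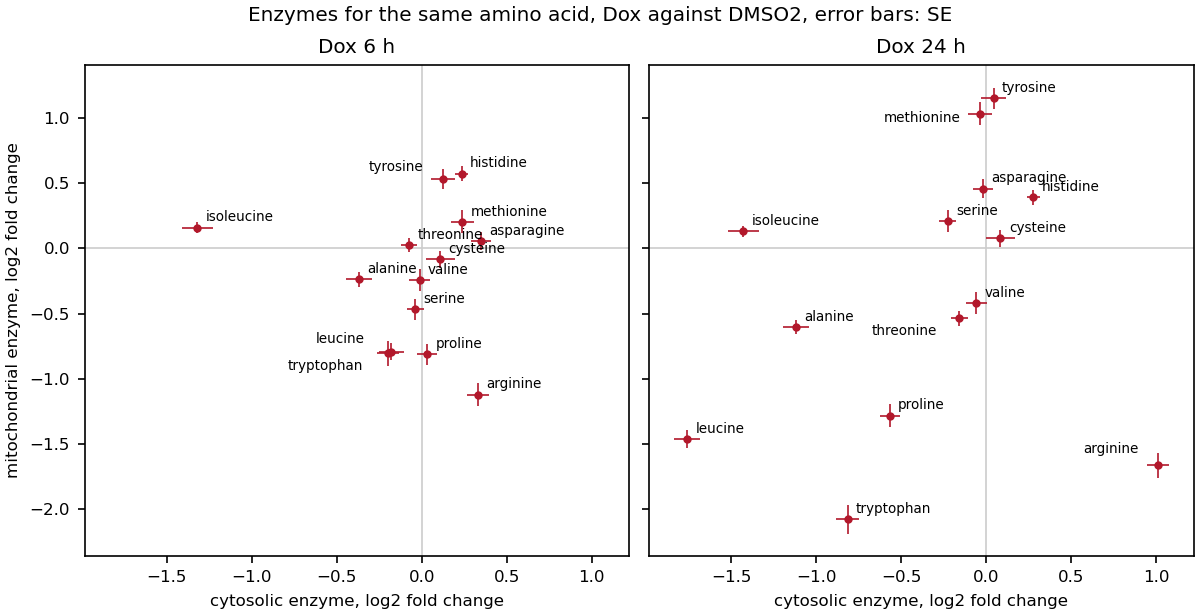
Log2 fold change of the mitochondrial enzyme (vertical) against that of the cytosolic enzyme for the same amino acid (horizontal) for 14 pairs, Dox against DMSO2 at 6 and at 24 hours; error bars are SE from edgeR. Leucine, tryptophan, alanine and proline lie in the lower left at 24 hours and arginine lies in the lower right.

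The Dox effect changed between the times for 8 cytosolic and 11 mitochondrial genes. Of the cytosolic genes 1 was higher and 7 lower at 24 hours, and of the mitochondrial genes 4 were higher and 7 lower (background 34% and 30.8% of all genes). The medians were -0.18 and -0.18, beside 0.07 over all genes, and with library size alone they turned to 0.024 and 0.017, with 3 cytosolic genes higher and 5 lower and 5 mitochondrial genes higher and 4 lower. Lars1 changed from -0.18 at 6 hours (adjusted p = 0.024) to -1.76, a difference of -1.58 (SE 0.11, adjusted p = 6.2e-21). Aars1 differed by -0.75 (SE 0.11, adjusted p = 9.4e-09) and Wars2 by -1.27 (SE 0.15, adjusted p = 9.6e-12). Mars2 differed the other way, by 0.83 (SE 0.12, adjusted p = 2.9e-08). Iars1 was already low at 6 hours, and its effects were -1.32 and -1.43.

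Farsa and Farsb encode the catalytic and the partner subunit of the same cytosolic enzyme, and a ratio taken within a library does not depend on the scaling between libraries. The log2 ratio of Farsb to Farsa carries the transcript lengths, so only its differences are read. In DMSO2 at 24 hours it was 0.07 ± 0.078 (SD, n = 7) and in Dox -0.68 ± 0.13 (SD, n = 7), a difference of -0.74 (exact two-sided permutation test, p = 0.00058, the smallest this design allows, adjusted p = 0.0035 over 12 ratio comparisons). At 6 hours of Dox the difference was -0.29 (exact p = 0.0093, adjusted 0.012). In 5FU at 24 hours it was 0.36 the other way (exact p = 0.0022, the smallest possible, adjusted 0.0055), and in Ace 0.26 at 6 and 0.12 at 24 hours (adjusted exact p = 0.007 and 0.0055). In 5FU at 6 hours the ratios were 0.28 ± 0.17 (SD, n = 6) and 0.29 ± 0.2 (SD, n = 6) in DMSO1, a difference of -0.01 (exact p = 0.95). These ratios were chosen after the data were seen.

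**Figure D5:**
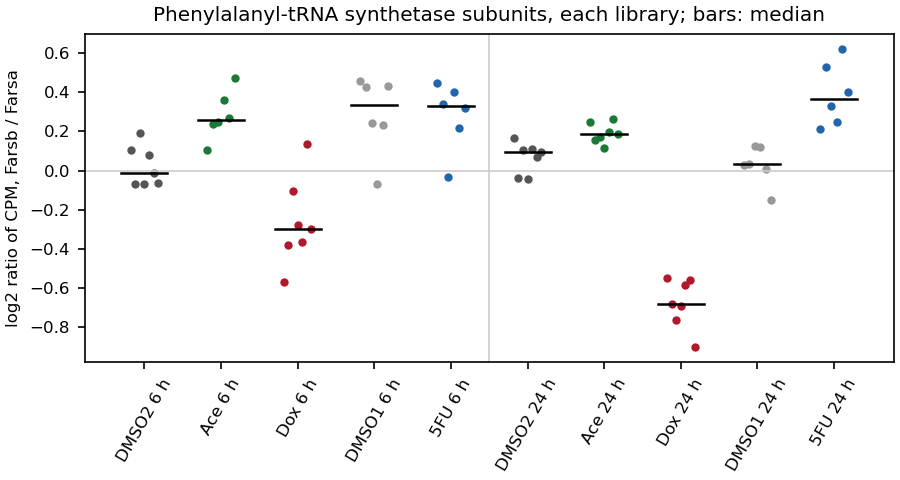
Log2 ratio of Farsb to Farsa CPM in every library of the 10 groups; points are libraries, bars group medians, and the grey vertical line parts 6 from 24 hours. The 7 Dox libraries at 24 hours lie between -0.90 and -0.55, below all other libraries apart from 1 of Dox at 6 hours, which lies among them.

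Hars1 and Hars2, the cytosolic and mitochondrial histidyl enzymes, were the only pair that rose together in Dox at both times. The log2 ratio of Hars1 to Hars2 fell by 0.34 in Dox at 6 hours (exact p = 0.00058, the smallest possible, adjusted 0.0035) and the difference at 24 hours was -0.09 (exact p = 0.3). In 5FU it fell by 0.40 at 6 hours and 0.26 at 24 hours (adjusted exact p = 0.0055 and 0.007). In Ace the difference was 0.0007 at 6 hours and -0.16 at 24 hours (adjusted exact p = 0.99 and 0.007).

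The multisynthetase complex is represented by 7 enzyme genes (Eprs1, Iars1, Kars1, Lars1, Mars1, Qars1 and Rars1), of which 1 rose and 4 fell in 5FU at 6 hours and 2 rose and 4 fell at 24 hours. Over all genes 23.4% rose and 24.5% fell in 5FU at 6 hours, and 28% rose and 27.8% fell at 24 hours. In Dox 4 rose and 1 fell at 6 hours, where 31.5% of all genes rose and 32.7% fell. At 24 hours of Dox 2 rose and 3 fell, where the shares over all genes were 40.4% and 41% and those of the complex near or below them. Of the 12 cytosolic genes outside the complex 0 rose and 7 fell in 5FU at 6 and 2 rose and 5 fell at 24 hours. In Dox 2 of these 12 rose and 2 fell at 6 hours, and 1 rose and 5 fell at 24 hours. They stand beside the same shares over all genes as those of the complex. Its 3 scaffold genes parted in Dox at 24 hours. Aimp2 was at 60.8 to 75.5 CPM (median 70.02) against 24.1 to 30.9 CPM (median 26.9) in DMSO2, with 1.31 (SE 0.072, adjusted p = 1e-25). Eef1e1 was at 12.3 to 15 CPM (median 13.4) against 29.4 to 35.8 CPM (median 31), with -1.23 (SE 0.083, adjusted p = 2.6e-21). Aimp1 was at 26.8 to 30.9 CPM (median 28.5) against 33.9 to 43.3 CPM (median 36.7), with -0.39 (SE 0.068, adjusted p = 6.1e-07). All 3 pairs of groups were without overlap, 1 higher and 2 lower. By catalytic fold, of the 9 class I cytosolic genes 0 rose and 6 fell in 5FU at 6 hours (median -0.28), and of the 9 class II genes 1 rose and 4 fell (median -0.19), where 23.4% of all genes rose and 24.5% fell.

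Of 13 accessory genes of aminoacylation, among them the subunits of the mitochondrial glutaminyl-tRNA amidotransferase and the proofreading and selenocysteine enzymes, 2 rose and 10 fell in Dox at 24 hours (median -0.67; 40.4% of all genes rose and 41% fell). At 6 hours of Dox 4 rose and 5 fell, near the 31.5% and 32.7% over all genes. Of the decreases at 24 hours of Dox, Sepsecs, which completes selenocysteinyl-tRNA, changed by -2.32 and Dtd1, a D-aminoacyl-tRNA deacylase, by -1.59. In 5FU 5 rose and 2 fell at 6 hours (23.4% and 24.5% of all genes) and 5 rose and 2 fell at 24 hours (28% and 27.8%). In Ace 2 rose and 1 fell at 6 hours (16.5% and 15.2% of all genes) and 3 rose and 0 fell at 24 hours (18.2% and 19.1%). Of 14 genes that trim tRNA ends or add CCA, 3 rose and 8 fell in Dox at 6 hours (31.5% and 32.7% of all genes) and 2 rose and 9 fell at 24 hours (40.4% and 41%). In 5FU 5 rose and 3 fell at 6 hours (23.4% and 24.5% of all genes) and 5 rose and 1 fell at 24 hours (28% and 27.8%).

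The ATF4 response takes in genes that make amino acids and genes that act in stress. Of 21 ATF4 response genes 3 rose and 8 fell in 5FU at 6 hours (median -0.21) and 2 rose and 15 fell at 24 hours (median -0.90), where 24.5% and 27.8% of all genes fell. Atf4 was at 88.1 to 104 CPM (median 93) in 5FU and 157 to 197 CPM (median 182) in DMSO1 at 24 hours, with -0.94 (SE 0.096, adjusted p = 4e-13). Asns, which makes asparagine, was at 39.1 to 45.5 CPM (median 40.7) against 52.8 to 64.6 CPM (median 58.8), with -0.49 (SE 0.095, adjusted p = 1.1e-05). Pycr1 (-2.12), Cth (-1.86) and Chac1 (-1.63) fell most among the list, and the 2 that rose, named after their values were seen, were Sesn2 (0.80) and Ddit4 (0.49). In Dox at 6 hours Atf4 was at 59.8 to 93.2 CPM (median 68.8), with -1.42 (SE 0.09, adjusted p = 7.3e-22). Its log2 fold change at 24 hours of Dox was -0.70, while Asns rose by 0.24 at 6 and 0.51 at 24 hours. Over the list 5 rose and 7 fell in Dox at 6 hours, where 31.5% of all genes rose and 32.7% fell, so the shares were near or below the background. At 24 hours of Dox 5 rose and 11 fell, where 40.4% and 41% of all genes did. In Ace 1 rose and 3 fell at 6 hours (16.5% and 15.2% of all genes) and 2 rose and 9 fell at 24 hours (18.2% and 19.1%).

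Of 11 amino acid transporters 0 rose and 9 fell in 5FU at 6 hours (median -0.76) and 0 rose and 10 fell at 24 hours (median -0.93), where 24.5% and 27.8% of all genes fell. At 24 hours the largest decreases were in Slc7a3 (cationic amino acids, -2.09), Slc1a5 (glutamine, -2.02) and Slc7a11 (cystine, -1.60). In Dox 2 rose and 8 fell at 6 hours (31.5% and 32.7% of all genes) and 3 rose and 4 fell at 24 hours, the latter below the 40.4% and 41% over all genes. In Ace 1 rose and 4 fell at 6 (16.5% and 15.2% of all genes) and 1 rose and 7 fell at 24 hours (18.2% and 19.1%). Of 7 genes that set eIF2 phosphorylation, the 4 kinases, the activator Gcn1 and a pair of phosphatase subunits, 5 rose and 1 fell in Dox at 24 hours, where 40.4% of all genes rose and 41% fell. The increases were led by the phosphatase subunit Ppp1r15a at 2.27 and the kinase Eif2ak2 at 2.11, both named after their values were seen.

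Across the 6 drug comparisons, 6 cytosolic and 6 mitochondrial genes rose in some and fell in others. Kars1 rose in 5 of 6, and the exception was Ace at 6 hours (0.01, adjusted p = 0.91). Pars2 was called in all 6, rising in 5FU and Ace at both times and falling in Dox at both. Iars1, Eprs1 and Vars1 each fell in 4 comparisons and rose in 0. Hars2 and Mars2 each rose in 4 and fell in 0. Cars2 was the 1 gene called in none, with log2 fold changes from -0.08 to 0.08.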

How the data were processed

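PolyA RNA of 65 cultures in 10 groups was sequenced. According to the study's methods, the authors quantified transcripts with kallisto 0.46.0 against the Ensembl rat transcriptome and summed them to genes with tximport. The deposited table holds estimated counts, not normalized, which were used here as they stand. Library totals were 14332827 to 25738297, and the lowest synthetase count of 30 sets the coarsest precision. Columns give each library's group but no replicate number, so libraries are numbered by column order. The table pairs no identifier with a symbol, and 14009 were matched through the RefSeq gene table.

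Genes with at least 10 counts in 1 library were kept (14554), scaled by TMM (factors 0.859 to 1.07) and tested in 1 model of the 10 groups with edgeR 4.0.16 (quasi-likelihood, R 4.3.3) at an FDR below 0.01 over all genes; the script was tested on simulated data. Ratios within libraries were compared by exact two-sided permutation tests. Synthetases were compared with full statistics for the 3 cytosolic and 3 mitochondrial genes with the largest called change per drug comparison (2 and 2 for other contrasts), and up to 3 per other list plus Atf4 and Asns. The alternatives were DESeq2 1.42.0, its size factors, library size alone, other filters, the compared groups only, an FDR of 0.1, each library left out, and 5FU against DMSO2, which was chosen after seeing the data, as were the ratios. The genes and lists were chosen with earlier results of these data known. Some items of these lists and windows are not reported here.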

Additional observations from a re-analysis of the deposited data

Results flagged for a closer look

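Of 71 sets of values of a named gene in a group that were tested with Dixon's ratio, 7 had a library far from the others, and chance gives about 1 in 20. Library 1 of DMSO1 at 24 hours was low for Lars1 (94.6 CPM) and Eprs1 (249.6 CPM), and library 7 of Dox at 24 hours was low for Iars1 (26.3 CPM) and Aars1 (70.3 CPM). Library 3 of DMSO1 at 6 hours was low for Yars1 (104 CPM), library 1 of 5FU at 6 hours was high for Pars2 (25.9 CPM), and library 1 of 5FU at 24 hours was low for Eprs1 (204.8 CPM) in a group that spans under 3 CPM.

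The effect of a drug differed between the times, by the edgeR contrast of the 24-hour effect minus the 6-hour effect, for 11 synthetases in 5FU. The log2 difference was 1.25 for Yars2, 0.94 for Sars2, 0.77 for Tars1, 0.71 for Rars2, 0.53 for Yars1, 0.45 for Farsb, 0.45 for Iars1, 0.40 for Rars1 and 0.37 for Aars1, and -0.49 for Lars1 and -0.48 for Qars1. In Ace it was -0.29 for Eprs1 and 0.18 for Kars1.

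In Dox 14 synthetases were called lower by this contrast. The log2 difference was -1.58 for Lars1, -1.27 for Wars2, -0.75 for Aars1, -0.67 for Lars2, -0.64 for Farsb, -0.62 for Wars1, -0.60 for Eprs1, -0.56 for Tars2, -0.54 for Rars2, -0.47 for Pars2, -0.46 for Fars2, -0.37 for Nars1, -0.36 for Aars2 and -0.27 for Qars1. The 5 called higher were at 0.83 for Mars2, 0.68 for Rars1, 0.68 for Sars2, 0.62 for Yars2 and 0.40 for Nars2. For Rars1 and Yars2 the Dox medians were nearly the same at both times, and the control levels fell.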

How the results depend on the processing

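With library size alone in place of TMM, the medians of the change of the Dox effect between the times reversed, from -0.18 to 0.024 for the cytosolic and from -0.18 to 0.017 for the mitochondrial genes; that scaling shifts the median of all genes by -0.15 in Dox at 6 hours. The counts of called genes that moved by over 1.5 times were these. In Ace at 6 hours the 2 cytosolic calls became 6 in a fit of the compared groups only and 6 at an FDR below 0.1. In Ace at 24 hours the 5 cytosolic calls became 8 with DESeq2, 11 with the compared groups only and 11 at an FDR below 0.1. Between DMSO1 and DMSO2 at 6 hours the 1 mitochondrial call became 2 with DESeq2 and 3 at an FDR below 0.1, and at 24 hours 0 cytosolic calls became 1 at an FDR below 0.1. For the change of the 5FU effect the 3 mitochondrial calls became 6 at an FDR below 0.1. For the change of the Ace effect the 2 cytosolic calls became 1 with library size alone and 4 with the compared groups only, and the 0 mitochondrial calls became 2, 1 and 3 under those settings and an FDR below 0.1. With DESeq2 or its size factors, the change of the 5FU effect had 3 higher and 1 lower mitochondrial genes, with library size alone 5FU at 6 hours had 1 higher and 16 lower cytosolic genes and the time course 1 higher and 6 lower mitochondrial genes. The cause of these moves was not tested.

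Leaving out 1 library at a time, the calls ranged from 1 to 2 for cytosolic genes in Ace at 6 hours, from 4 to 8 (cytosolic) and 3 to 5 (mitochondrial) in Ace at 24 hours, from 0 to 2 for mitochondrial genes between the solvents at 6 hours, where the 2 calls came without library 3 of DMSO1, and from 1 to 2 for the cytosolic change of the Ace effect. Of 165 calls of single synthetases, 23 were lost in at least 1 such fit and 0 changed sign. No paired analysis was possible because the columns carry no replicate numbers.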
